A study of Mus musculus with 12 samples.

Results

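Of the 8 genes described here, 6 encode receptors of the SLAM (signalling lymphocytic activation molecule) family and the other two encode SH2 domain adaptors. The receptor genes are Slamf1, Slamf6, Slamf7, Ly9, Cd244a and Cd48, and the adaptor genes are Sh2d1a and Sh2d2a. They were selected by symbol from a table of 13283 genes, and all 8 had a row. Slamf6 was included because of its levels in these libraries, so its values are described without a test, and counts of members that passed a test refer to the 7 others.

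SLAM family receptors are immunoglobulin-like surface proteins of blood cells, and most of them bind a copy of themselves on a neighbouring cell. CD244 instead binds CD48, which is held in the membrane by a lipid anchor and has no cytoplasmic tail. Tyrosine motifs in the tails of most of the other receptors bind SAP, the small SH2 adaptor encoded by Sh2d1a, which brings in the kinase FYN. In CD8 T cells these receptors tune activation, killing and contact with other lymphocytes, and SLAMF6 is widely used as a surface marker of less differentiated CD8 T cells.

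The libraries measured mRNA of mouse cytotoxic T lymphocytes (CTL), grown from single cell suspensions of lymph nodes or spleens of female mice. The suspensions were activated for 48 h with antibodies to CD3 and CD28, together with IL-2 and IL-12. The cells were then kept in IL-2 at 20 ng/mL and IL-12 at 2 ng/mL. WT CTL came from GzmB cre+ mice and FOXO1-GFP KO CTL from FOXO1-GFPfl/fl Gzmb cre+ mice, so that cells of both genotypes carried a Cre recombinase driven by the granzyme B promoter. That Cre removes exon 2 of the floxed allele of Foxo1, a transcription factor, once granzyme B is switched on, and the cells were sorted as CD8+ (and GFP- for the knockout). From day 6, cells of each genotype were cultured for 24 h with DMSO as vehicle or with IC87114 at 10 µM, which blocks p110δ, a PI3K catalytic subunit (PI3Kdi). This gave 4 groups of 3 libraries, WT, WT+PI3Kdi, FOXO1-GFP KO and FOXO1-GFP KO+PI3Kdi, each made from 300 ng of RNA.

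Depth, estimated from the deposited values after the authors' scaling, was 12.9 to 48.0 M reads per library (M, 1e6). Foxo1 was at 5.77 to 10.46 FPKM (fragments per kilobase of summed exon length and per M) in the 6 WT libraries and at 0.58 to 1.75 FPKM in the 6 FOXO1-GFP KO libraries, and no library crossed over. All 7 markers of CD8 T cells and CTL were present, at a summed level of 8511 to 12410 FPKM. The 7 members other than Slamf6 had 52.3 to 23500 estimated reads in a library, whereas Slamf6 had 1 to 233.

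The first question was how strongly CTL express each member. In WT CTL the order of levels, all in FPKM (mean ± SD, n = 3), began with Cd48 at 203.9 ± 18.7 and Sh2d2a at 77.6 ± 6.78. Slamf7 at 34.5 ± 7.48 and Ly9 at 28.2 ± 3.90 came next, and their libraries overlapped. Cd244a was at 7.54 ± 0.717, Sh2d1a at 5.98 ± 0.663, Slamf1 at 1.07 ± 0.349 and Slamf6 at 0.253 ± 0.0666. The ligand Cd48 thus had a level well over that of its receptor Cd244a, and Slamf6 was the lowest member.

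The order was shared by the 4 groups except at its lower end. In WT+PI3Kdi, Slamf6 at 1.05 ± 0.144 FPKM stood above Slamf1 at 0.873 ± 0.142 FPKM, with overlapping libraries. In both FOXO1-GFP KO groups the libraries of Cd244a and Sh2d1a overlapped, and those of Slamf7 and Ly9 did not. FPKM here divides by the summed length of all exons, which is 10832 bp for Slamf6 and 5505 bp for Sh2d1a, while their longest protein-coding transcripts have 5729 and 1223 bp. Scaled to the latter, a choice made after seeing the data, Sh2d1a in WT was at 26.9 against 9.78 for Cd244a, and Slamf6 in WT+PI3Kdi was at 1.98 against 2.00 for Slamf1. The plot of FPKM by library shows these levels.

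**Figure D1:**
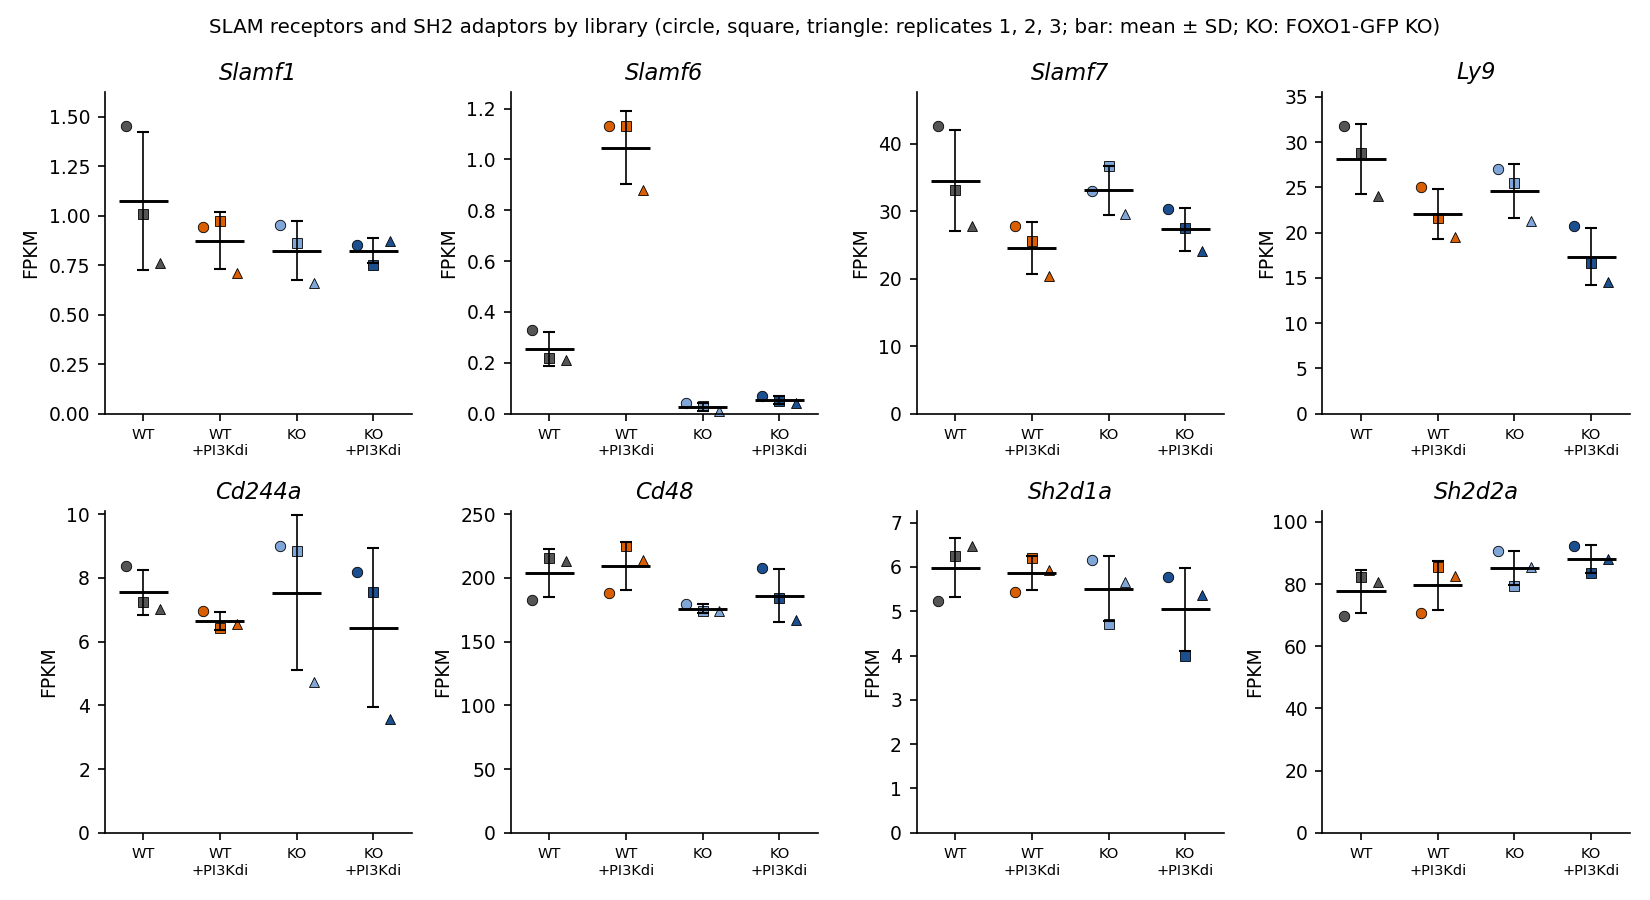
FPKM (linear axis from 0) of the 8 members in each of the 12 libraries, with circles, squares and triangles for replicates 1, 2 and 3, a bar for the group mean and whiskers for 1 SD (n = 3). Slamf6 lies at 0.88 to 1.13 FPKM in WT+PI3Kdi and at 0.01 to 0.07 FPKM in the 6 FOXO1-GFP KO (KO) libraries, while the libraries of the other members mostly overlap between groups.

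Slamf6 (ENSMUSG00000015314) lies on chromosome 1 from 171917515 to 171953170 on the plus strand (GRCm38). It encodes a self-binding receptor that signals through SAP. In WT replicates 1 to 3 its FPKM were 0.33, 0.22 and 0.21, and with PI3Kdi they were 1.13, 1.13 and 0.88. The FOXO1-GFP KO libraries had 0.04, 0.03 and 0.01 FPKM without PI3Kdi and 0.07, 0.05 and 0.04 FPKM with it. Every WT+PI3Kdi library was above every WT library, every FOXO1-GFP KO library of either treatment was below every WT library, and the libraries of the FOXO1-GFP KO groups met at 0.04 FPKM.

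These low values rest on few reads. Behind them were about 90, 114 and 63 reads in WT and 233, 186 and 147 in WT+PI3Kdi. The FOXO1-GFP KO libraries had about 10, 11 and 1 reads without PI3Kdi, and 23, 11 and 8 with it. The deposited values are rounded to 2 decimals, which allows 19 to 24 reads in all for FOXO1-GFP KO and 40 to 44 for FOXO1-GFP KO+PI3Kdi. A level of 3 reads corresponded to 0.00577 to 0.0215 FPKM over the libraries, and only FOXO1-GFP KO replicate 3 lay under its own such limit.

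Summed over the libraries of a group and divided by their depth, Slamf6 had 2.64 reads per M in WT and 11.4 in WT+PI3Kdi. That is a 4.31-fold higher level with PI3Kdi (95% exact binomial interval 3.72 to 5.003, for counting error only). In FOXO1-GFP KO CTL it had 0.323 reads per M without and 0.605 with PI3Kdi, a 1.88-fold higher level (1.09 to 3.30). The intervals of this paragraph pool the reads of the 3 libraries of a group and leave out the spread between libraries, so they are not a test of a difference. All 3 libraries with PI3Kdi were above the library of the same number without it, in each genotype. Without PI3Kdi, Slamf6 in FOXO1-GFP KO was 8.19-fold below WT (5.30 to 13.3), and with PI3Kdi it was 18.8-fold below (13.7 to 26.4). In FOXO1-GFP KO+PI3Kdi, Slamf6 therefore remained under its level in vehicle-treated WT CTL, at 0.0533 ± 0.0153 against 0.253 ± 0.0666 FPKM (SD, n = 3).

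On the log2(FPKM + 0.1) scale that the tests of the other members use, the Slamf6 differences were 1.71 for PI3Kdi in WT, 0.28 for PI3Kdi in FOXO1-GFP KO, -1.47 for genotype without and -2.90 for genotype with PI3Kdi. The added 0.1 FPKM exceeds all 6 FOXO1-GFP KO values and shrinks their differences. On estimated reads (limma voom), the difference for PI3Kdi was 2.10 in WT and 1.04 in the knockout, so the gap between the responses of the genotypes went from -1.43 to -1.05.

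The summed level of B and plasma cell transcripts was, like that of Slamf6, highest in WT+PI3Kdi and lowest in the FOXO1-GFP KO groups. Of 9 B and plasma cell markers, 4 had a row (Cd79b, Ighm, Igkc and Jchain), and Cd79a, Ms4a1, Pax5, Ebf1 and Cd22 had none. The summed level of the 4 was 11.9 to 16.0 FPKM in vehicle-treated WT and 16.1 to 20.8 FPKM with PI3Kdi, while FOXO1-GFP KO libraries had 4.55 to 6.97 FPKM without and 4.49 to 6.41 FPKM with PI3Kdi, where unlike Slamf6 the sum was no higher with the inhibitor (means 5.61 and 5.49 FPKM). Igkc was at 0 in FOXO1-GFP KO replicate 2 and in all 3 FOXO1-GFP KO+PI3Kdi libraries. Ighm was most of the sum in WT, with means of 8.67, 12.3, 2.83 and 2.35 FPKM in the order of groups above. Cd79b had means of 3.61, 3.67, 2.51 and 2.96 FPKM, and its WT libraries with and without PI3Kdi overlapped. Jchain had 0.480, 0.883, 0.110 and 0.177 FPKM. In FOXO1-GFP KO the means of Cd79b and Jchain were thus higher with the inhibitor, and those of Ighm and Igkc lower. B cells are known to express Slamf6, and the part of these transcripts in its levels was not tested.

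The summed levels of the other lists did not follow that order of groups, although Cd4 and Fcgr3 also had their highest means in WT+PI3Kdi. Each sum was mostly the level of a single gene, in WT Zbtb7b at 6.43 FPKM, Cst3 at 36.9 FPKM and Eomes at 84.6 FPKM. The sums therefore say little about the other markers of each list. Of 4 CD4 T cell markers, 3 had a row, with a summed level of 6.65 to 8.24 FPKM in WT without and 7.36 to 7.79 FPKM with PI3Kdi, and of 6.01 to 7.05 FPKM in FOXO1-GFP KO without and 4.96 to 7.39 FPKM with PI3Kdi. Among them Cd4 itself was at 0.44 to 0.57, 0.83 to 0.95, 0.09 to 0.44 and 0.12 to 0.51 FPKM in the same order of groups, and Foxp3 had no row. Of 6 myeloid markers, 3 had a row and Lyz2, Csf1r and Adgre1 had none. The 3 summed to 30.1 to 44.5 FPKM in WT, 34.1 to 59.1 in WT+PI3Kdi, 38.4 to 44.8 in FOXO1-GFP KO and 48.8 to 55.5 in FOXO1-GFP KO+PI3Kdi, with their highest mean in the last. Among them Fcgr3 had means of 1.81, 2.45, 0.983 and 0.833 FPKM in the same order of groups, while Itgam had its highest mean in WT, at 0.103 FPKM. Of 5 NK cell markers, 3 had a row and Ncr1 and Klra8 had none. These summed to 85.0 to 93.7 FPKM in WT, 87.7 to 115.0 in WT+PI3Kdi, 100.7 to 115.1 in FOXO1-GFP KO and 95.4 to 109.3 in FOXO1-GFP KO+PI3Kdi, with their highest mean in FOXO1-GFP KO. Eomes, most of that sum, is also a transcription factor of CD8 T cells. Klrb1c had means of 2.28, 2.45, 3.27 and 3.96 FPKM and Tyrobp of 1.07, 1.41, 1.78 and 1.87 FPKM in the same order of groups. The part of these other lists in the Slamf6 levels was not tested. In bulk libraries, fewer cells that express a gene and less of its RNA per cell cannot be told apart.

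**Figure D2:**
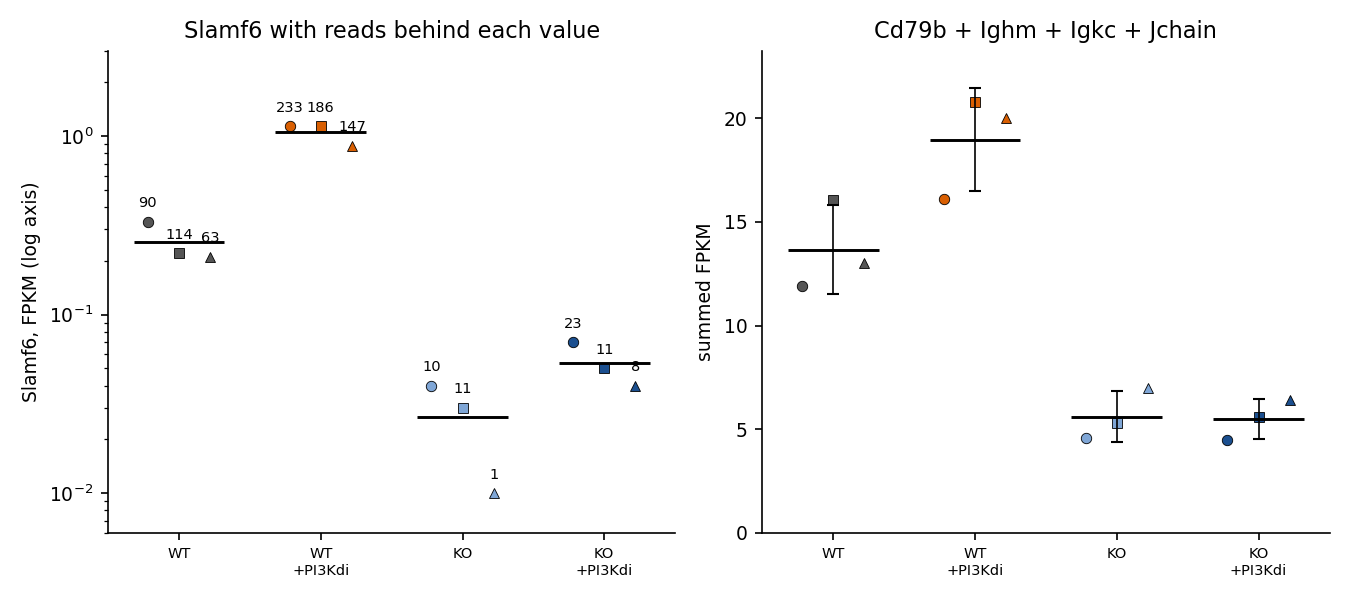
Left, Slamf6 FPKM in each library on a log axis, with the estimated reads behind each value printed over it and a bar for the group mean. Right, the summed FPKM of Cd79b, Ighm, Igkc and Jchain on a linear axis, with group mean and 1 SD (n = 3). Both quantities were highest in WT+PI3Kdi and lower in all FOXO1-GFP KO (KO) libraries than in any WT library, with Slamf6 spanning 0.01 to 1.13 FPKM and the summed markers 4.49 to 20.8 FPKM.

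The 6 receptor genes lie in a cluster of 393978 bp on chromosome 1, which also holds Cd84, a SLAM receptor gene that is no member and was singled out after its values were seen because, at 26.8 kb, it is the nearest SLAM gene to Slamf6. The sequence upstream of Slamf6 is shown because Slamf6 was the member whose libraries separated by both genotype and, in WT, inhibitor, and those of Cd84 and Slamf1, its nearest relatives in the cluster, are shown beside it. Each is the 250 bases before the RefSeq start of the gene (GRCm38.p6, plus strand), at chr1:171917212-171917461 for Slamf6, chr1:171839447-171839696 for Cd84 and chr1:171766882-171767131 for Slamf1. Capitals mark TGTTT or its reverse complement AAACA, the short core of the DNA sequence that forkhead factors such as FOXO1 bind.
Slamf6: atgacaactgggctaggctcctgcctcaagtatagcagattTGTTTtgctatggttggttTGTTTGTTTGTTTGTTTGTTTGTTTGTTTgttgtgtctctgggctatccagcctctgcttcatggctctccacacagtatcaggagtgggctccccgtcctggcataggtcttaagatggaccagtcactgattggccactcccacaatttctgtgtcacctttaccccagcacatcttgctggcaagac
Cd84: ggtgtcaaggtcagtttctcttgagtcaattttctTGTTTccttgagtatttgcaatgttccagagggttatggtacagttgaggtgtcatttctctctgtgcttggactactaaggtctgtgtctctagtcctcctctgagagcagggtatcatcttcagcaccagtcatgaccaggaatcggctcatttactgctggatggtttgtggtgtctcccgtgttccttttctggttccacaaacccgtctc
Slamf1: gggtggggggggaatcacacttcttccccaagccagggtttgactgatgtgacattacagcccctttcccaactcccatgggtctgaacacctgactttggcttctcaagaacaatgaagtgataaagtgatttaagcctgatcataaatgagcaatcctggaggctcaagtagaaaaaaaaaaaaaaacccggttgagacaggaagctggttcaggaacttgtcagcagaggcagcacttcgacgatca

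Counting copies that overlap by a base, the Slamf6 window held 8 of these cores, nearly all in a repeat of TTTG. Cd84 held 1 and Slamf1 held 0. Of the other members with a RefSeq promoter, Slamf7 and Cd48 held 1 each and Cd244a held 0. Among 32851 promoter windows of this length, 46.4% held at least 1 core and 0.0822% held 8 or more. The longer form GTAAACA was in 3.17% of the windows, on either strand, and in that of none of the 5 members matched (Slamf6, Slamf7, Slamf1, Cd244a and Cd48). The core was chosen after the sequence had been seen, and the match describes letters in a window and is not a binding site.

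The next question was whether the rest of the cluster followed Slamf6. None of the other 5 receptor genes, nor either adaptor, passed the threshold of an adjusted p under 0.05 and a fold change over 1.5 (limma on log2(FPKM + 0.1), Benjamini-Hochberg over all genes). The count was 0 of 7 members for PI3Kdi in WT, against 0.0979% of all genes called. It was 0 of 7 for PI3Kdi in FOXO1-GFP KO (0.0452% of all genes), 0 of 7 for genotype with PI3Kdi (1.45%), 0 of 7 for genotype without PI3Kdi (0.331%) and 0 of 7 for the difference of the PI3Kdi responses (0% of all genes). At shares this low, here and in the next paragraph, 0 of 7 is near the background. These counts therefore do not tell whether the members followed Slamf6. At an unadjusted p under 0.05 the counts were 2, 1, 1, 0 and 0, against 5.14, 5.17, 10.2, 6.51 and 1.51% of all genes.

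Within a genotype, vehicle and PI3Kdi libraries of equal replicate number shared their deviations. The replicate block within genotype allows for these pairs with a single correlation (0.757) assumed for all genes. The blocked fit also called 0 of 7 members in each of these 5 comparisons, against 2.57, 2.79, 1.18, 0.233 and 0.0226% of all genes, and limma voom on estimated reads called 0 of 7 as well. At an unadjusted p under 0.05 the blocked counts were 2, 2, 1, 0 and 0 of 7, against 23.7, 29.5, 9, 5.09 and 10.8% of all genes. With all 12 libraries, the largest difference of any of the 7 in either direction was 0.51 on the log2 scale, below the 0.58 of a 1.5-fold change. Leaving out 1 library gave -0.65 to -0.39 for Ly9 with PI3Kdi in FOXO1-GFP KO. It gave -0.62 to -0.32 for Slamf7 with PI3Kdi in WT. For these genes, staying below a 1.5-fold change thus depended on single libraries. Over the 7 members the median log2 difference was -0.18 for PI3Kdi in WT and -0.13 for PI3Kdi in the knockout, where that of all genes was -0.04 and -0.02. It was -0.12 for genotype without PI3Kdi and -0.13 with it, where that of all genes was -0.01 and 0.01.

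Ly9 and Slamf7 had differences that passed the adjusted p with the replicate block, though not the fold change. With the block, 2 of 7 members were lower at an adjusted p under 0.05 in each PI3Kdi comparison, both times Ly9 and Slamf7, where 3.53% of all genes were lower in WT and 4.06% in FOXO1-GFP KO. Without the block 0 of 7 were, where 0.0226% and 0% of all genes were lower.

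Ly9 (ENSMUSG00000004707) encodes a self-binding SLAM receptor that restrains some innate-like T cells. Its level was 31.74, 28.75 and 24.01 FPKM in WT and 25.02, 21.60 and 19.51 FPKM in WT+PI3Kdi. It was 27.00, 25.50 and 21.25 FPKM in FOXO1-GFP KO and 20.76, 16.64 and 14.56 FPKM in FOXO1-GFP KO+PI3Kdi. The PI3Kdi library was lower in all 3 pairs of each genotype, and in FOXO1-GFP KO the groups did not overlap, which held downwards for 4.8% of all genes. The log2 difference was -0.35 ± 0.07 in WT (SE with the block, adjusted p = 0.0109, limma) and -0.51 ± 0.07 in FOXO1-GFP KO (adjusted p = 0.00153). Without the block the adjusted p was 0.960 and 0.651. The responses differed between genotypes by -0.16 (95% interval -0.37 to 0.05 with the block, adjusted p = 0.591, limma), so a difference of response was not shown. Leaving out 1 library took that value from -0.30 (without FOXO1-GFP KO+PI3Kdi replicate 1) to -0.0439 (without its replicate 3).

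Slamf7 (ENSMUSG00000038179) encodes a self-binding receptor of effector T cells and NK cells that does not need SAP. Its level was 42.57, 33.10 and 27.81 FPKM in WT and 27.74, 25.62 and 20.33 FPKM in WT+PI3Kdi, where the highest library with PI3Kdi was just under the lowest without. It was 33.02, 36.73 and 29.55 FPKM in FOXO1-GFP KO and 30.40, 27.53 and 24.04 FPKM in FOXO1-GFP KO+PI3Kdi, which overlapped. The PI3Kdi library was again lower in all 3 pairs of each genotype. The log2 difference was -0.48 ± 0.08 in WT (SE with the block, adjusted p = 0.00363, limma) and -0.28 ± 0.08 in FOXO1-GFP KO (adjusted p = 0.0455), against adjusted p of 0.657 and 0.933 without the block. The responses differed between genotypes by 0.20 (95% interval -0.04 to 0.44 with the block, adjusted p = 0.556, limma). Without WT replicate 1, the highest library, the difference in WT was -0.32 and that of the responses 0.0390. Without WT replicate 3, the lowest WT library, they were -0.62 and 0.35. Between genotypes Slamf7 differed by -0.04 without and 0.16 with PI3Kdi, and the libraries overlapped.

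In WT CTL, Slamf6 was thus higher with the inhibitor in 3 of 3 pairs, while Ly9 and Slamf7, at 310.1 and 264.5 kb from it in the cluster, were lower in 3 of 3 pairs. A shared direction in 3 of 3 pairs was common among the members, with Slamf1 and Cd244a also lower and Cd48 and Sh2d2a higher. Its share over all genes was not counted. Cd84, the nearest SLAM gene, was higher in 3 of 3 pairs by a log2 difference of 0.20, which did not pass the test (adjusted p = 0.9997 without and 0.165 with the block, limma).

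**Figure D3:**
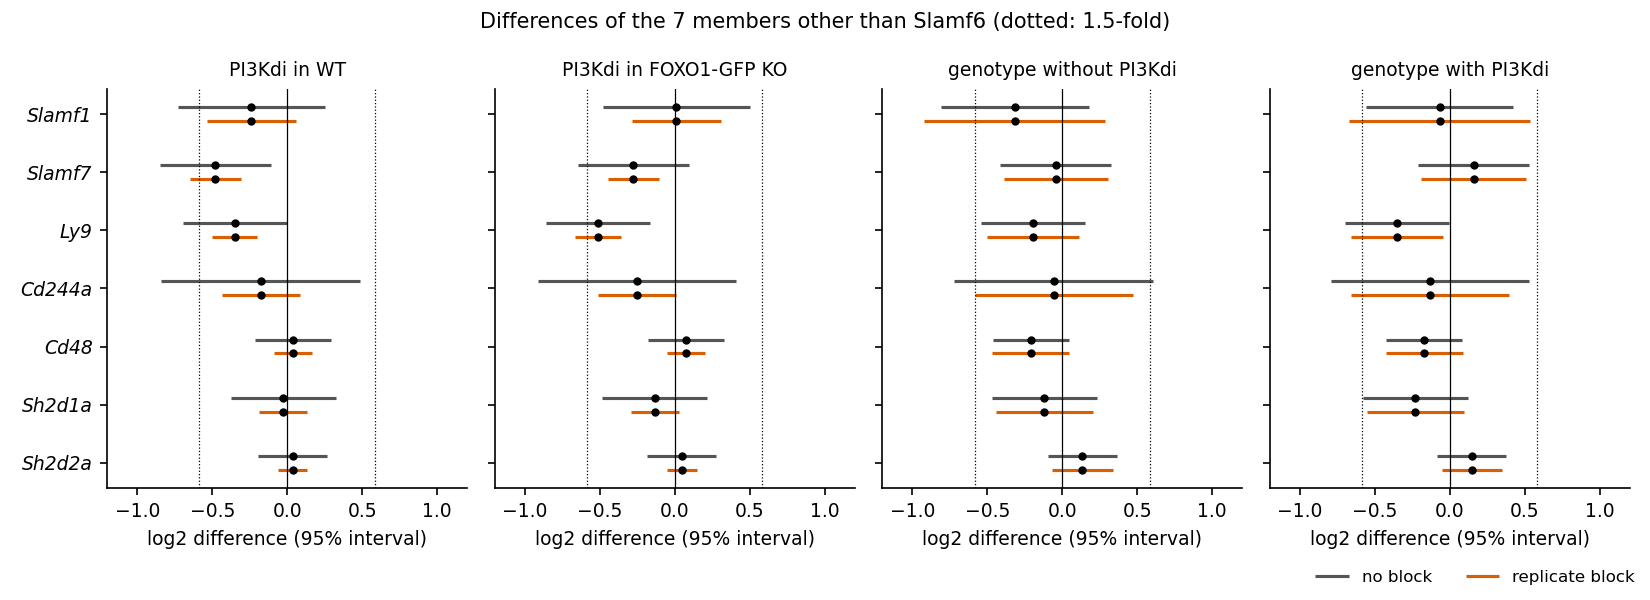
Differences on the log2(FPKM + 0.1) scale for the 7 members other than Slamf6 in 4 comparisons (PI3Kdi minus vehicle, or FOXO1-GFP KO minus WT), as points with 95% intervals without (grey) and with (orange) the replicate block within genotype; dotted lines mark a 1.5-fold change. With the block the intervals of Ly9 and Slamf7 lie below 0 in both PI3Kdi comparisons, and no point reaches a dotted line, the farthest being Ly9 at -0.51.

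Slamf1, which encodes the self-binding receptor that gave the family its name and is a costimulator of T cells, was near the lower end of the measured levels. It was at 1.45, 1.01 and 0.76 FPKM in WT and 0.94, 0.97 and 0.71 FPKM in WT+PI3Kdi. It was at 0.95, 0.86 and 0.66 FPKM in FOXO1-GFP KO and 0.85, 0.75 and 0.87 FPKM in FOXO1-GFP KO+PI3Kdi. All 4 groups overlapped, and the widest difference, -0.32 for genotype without PI3Kdi, had a 95% interval of -0.81 to 0.18 and was -0.0946 without WT replicate 1.

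Cd244a encodes the receptor for CD48, which can activate or inhibit killing. It was at 8.36, 7.25 and 7.02 FPKM in WT and 6.96, 6.42 and 6.55 FPKM in WT+PI3Kdi, a narrow separation that 5.81% of all genes also had downwards (Slamf7 was the other of 2 of 7 members). FOXO1-GFP KO libraries had 9.01, 8.85 and 4.72 FPKM without PI3Kdi and 8.19, 7.55 and 3.57 FPKM with it. Replicate 3 was low in both FOXO1-GFP KO groups. The log2 difference with PI3Kdi was -0.18 (95% interval -0.44 to 0.08 with the block) in WT, or -0.10 without WT replicate 1, and -0.25 (-0.51 to 0.01) in FOXO1-GFP KO. Ly9 lies within the span of Cd244a on the opposite strand over 18787 bp, and the strand setting of the counting is not given in the sources used here, so the split of reads between these genes is uncertain.

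Cd48 encodes the ligand of CD244. It was at 182.42, 215.98 and 213.39 FPKM in WT and 188.20, 225.26 and 214.00 FPKM in WT+PI3Kdi, higher with PI3Kdi in 3 of 3 pairs by a log2 difference of 0.04 (95% interval -0.09 to 0.16 with the block). It was at 179.65, 173.70 and 173.72 FPKM in FOXO1-GFP KO and 207.64, 184.12 and 166.59 FPKM in FOXO1-GFP KO+PI3Kdi. Without PI3Kdi the FOXO1-GFP KO libraries all lay below the WT libraries, as those of 6.79% of all genes did, with a log2 difference of -0.21 (95% interval -0.46 to 0.04, adjusted p = 0.907, limma). With PI3Kdi the genotypes overlapped.

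The adaptors differed little. Sh2d1a, on the X chromosome, was at 5.23, 6.24 and 6.48 FPKM in WT and 5.44, 6.21 and 5.94 FPKM in WT+PI3Kdi. It was at 6.16, 4.71 and 5.66 FPKM in FOXO1-GFP KO and 5.77, 3.99 and 5.36 FPKM in FOXO1-GFP KO+PI3Kdi, lower with PI3Kdi in 3 of 3 pairs of this genotype by 0.13 on the log2 scale (95% interval of the difference -0.29 to 0.03 with the block). Sh2d2a, on chromosome 3, encodes TSAd, a T cell adaptor that binds the kinase LCK. It was at 69.86, 82.41 and 80.58 FPKM in WT and 70.72, 85.45 and 82.65 FPKM in WT+PI3Kdi. It was at 90.54, 79.41 and 85.40 FPKM in FOXO1-GFP KO and 92.35, 83.41 and 88.10 FPKM in FOXO1-GFP KO+PI3Kdi. For both adaptors the groups overlapped in all 4 comparisons, and the 95% intervals without the block stayed within a 1.5-fold change either way.

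Other genes of the pathway were read from lists. Of 6 relatives (Cd84, Slamf8, Slamf9, Cd2, Sh2d1b1 and Sh2d1b2), 3 had a row, and 0 of these 3 were called in any of the 5 comparisons by limma, with or without the block, or by voom. Without the block, 1 value of theirs had an unadjusted p under 0.05, that of Cd84 for genotype with PI3Kdi, where 10.2% of all genes passed. The blocked fit gave 2, 2, 1, 0 and 0 of 3 at that p in the order of the comparisons above. The shares of all genes were 23.7, 29.5, 9, 5.09 and 10.8%. With the block, Cd2, which encodes another receptor for CD48, was higher with PI3Kdi by 0.25 in each genotype, under a 1.5-fold change (adjusted p = 0.0179 in WT and 0.0188 in FOXO1-GFP KO, limma), where 7.41 and 10.1% of all genes passed that p either way. The nearest neighbour, Cd84, encodes a self-binding receptor that also recruits SAP. It was at 8.46, 6.31 and 6.02 FPKM in WT and 8.91, 7.27 and 7.56 FPKM in WT+PI3Kdi, higher in 3 of 3 pairs. It was at 6.15, 6.12 and 4.75 FPKM in FOXO1-GFP KO and 6.80, 5.55 and 4.97 FPKM in FOXO1-GFP KO+PI3Kdi. With PI3Kdi the genotypes did not overlap, as 7.9% of all genes did downwards, and the log2 difference of -0.45 did not pass the test (adjusted p = 0.339 without and 0.371 with the block, limma).

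Of 15 signalling partners of SAP and TSAd, among them the kinases Fyn and Lck and the phosphatases Ptpn6, Ptpn11 and Inpp5d, all 15 had a row. The count called by limma was 0 of 15 in each comparison, without the block or with it, and 0 by voom, and their log2 differences lay between -0.25 and 0.35. At an unadjusted p under 0.05, 1 of 15 passed for PI3Kdi in WT and 1 of 15 in FOXO1-GFP KO without the block, and 0 in the other comparisons. The shares of all genes were 5.14, 5.17, 10.2, 6.51 and 1.51% in the order of the comparisons above. With the block, 3, 8, 0, 0 and 2 of 15 passed that p in the same order, against 23.7, 29.5, 9, 5.09 and 10.8% of all genes. At an adjusted p under 0.05 the block left Prkcq, a kinase of T cell receptor signalling, higher with PI3Kdi in WT (0.27, adjusted p = 0.00740, limma). In FOXO1-GFP KO it left Prkcq (0.18) and the adaptor Dok1 (0.35) higher and the adaptor Dok2 (-0.21) lower, with adjusted p of 0.0395, 0.00661 and 0.0353 (limma). Of all genes, 7.41% in WT and 10.1% in FOXO1-GFP KO passed that adjusted p either way. Cd2, Prkcq, Dok1 and Dok2 are named after their values were seen. The median of the 15 was -0.03 for PI3Kdi in WT and -0.04 for PI3Kdi in the knockout, beside -0.04 and -0.02 for all genes.

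Within 500 kb of the cluster the table held 35 genes that are not members. Without the block 0 of 35 were called in any comparison by limma or voom, and 0, 1, 6, 1 and 0 had an unadjusted p under 0.05 (limma) in the order of the comparisons above. The shares of all genes at that p were 5.14, 5.17, 10.2, 6.51 and 1.51%. The blocked fit gave 5, 7, 5, 1 and 3 of 35 at that p, against 23.7, 29.5, 9, 5.09 and 10.8% of all genes. With the block, 2 were called lower with PI3Kdi in FOXO1-GFP KO, beside 2.79% of all genes called either way, and 0 in the other 4 comparisons. These were F11r, which encodes a junctional adhesion molecule (-0.81, adjusted p = 0.0253, limma with the block), and Cfap126, which encodes a protein of motile cilia (-0.59, adjusted p = 0.0499). Igsf8 was also lower there at an adjusted p under 0.05, though not by 1.5-fold (-0.21, adjusted p = 0.0468, limma with the block). Of all genes, 10.1% passed that adjusted p either way. F11r was at 0.28, 0.28 and 0.20 FPKM in FOXO1-GFP KO and 0.15, 0.04 and 0.13 FPKM with PI3Kdi, and Cfap126 at 0.43, 0.40 and 0.61 FPKM and 0.31, 0.16 and 0.42 FPKM. For PI3Kdi in WT the 35 genes lay between -0.45 and 0.43 on the log2 scale, where Slamf6 was at 1.71. For genotype with PI3Kdi they lay between -1.62 and 0.68, where Slamf6 was at -2.90. The lowest of them, named after its values were seen, was Fcgr3, an Fc receptor gene used as a myeloid marker, which was not called (adjusted p = 0.0688, limma). The plot of differences by distance from Slamf6 shows this stretch.

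**Figure D4:**
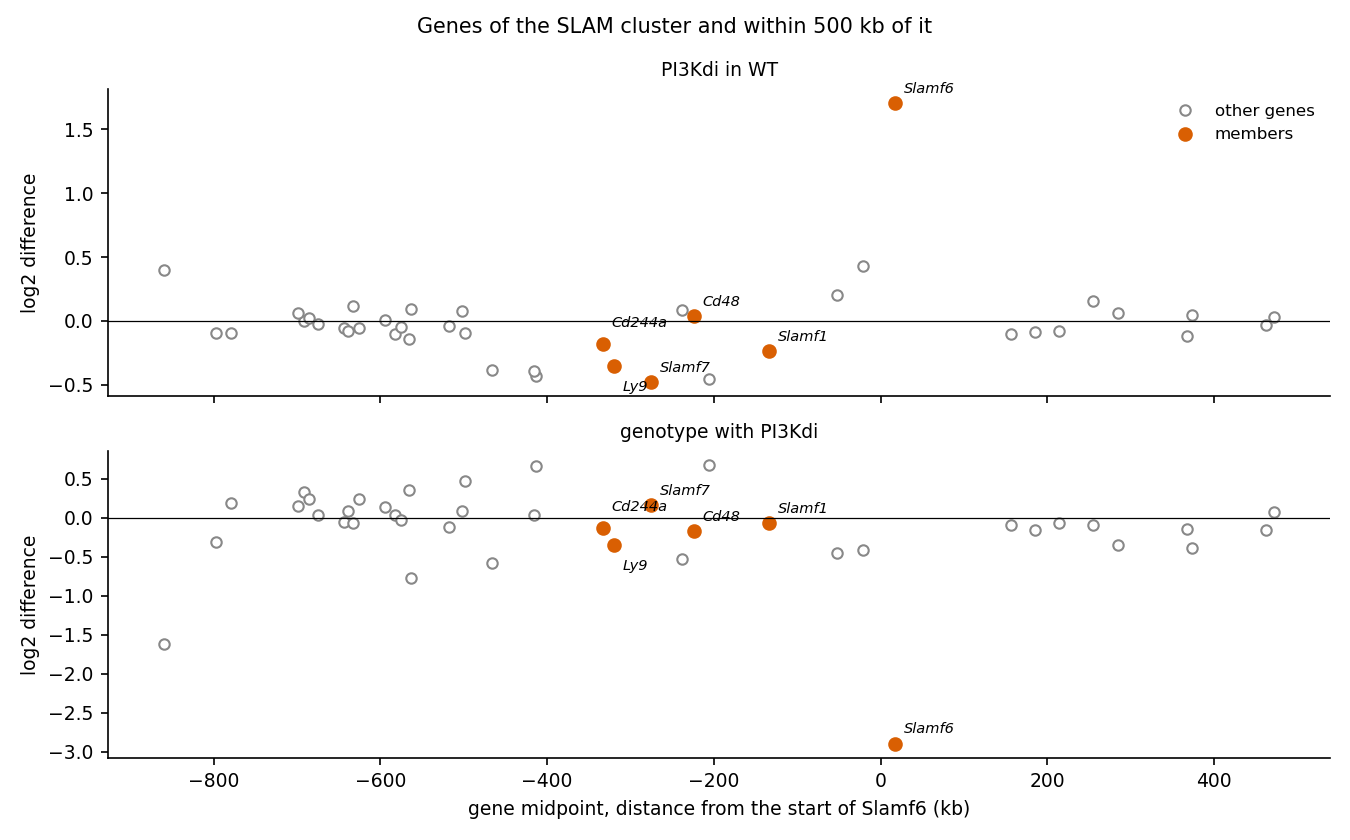
Log2 difference of each gene of the SLAM cluster and within 500 kb of it against the distance of its midpoint from the start of Slamf6 in kb, for PI3Kdi in WT (top) and for genotype with PI3Kdi (bottom); filled points are the 6 members on chromosome 1 and open points the 35 other genes. Slamf6, included because of its levels in these libraries, lies at 1.71 in the first comparison and at -2.90 in the second. The other members lie within 0.48 of 0.

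The genes whose pattern over the 12 libraries was most like that of Slamf6 were found by Pearson correlation of log2(FPKM + 0.1) among 11289 genes. These libraries share groups and pairs, and the values describe likeness only. The 5 highest were Ssbp2 (r = 0.981), Ifi209 (0.969), Ripor2 (0.968), Tmem71 (0.964) and Tnfrsf22 (0.964). Ssbp2 was at 2.12 ± 0.139 FPKM in WT without and 3.29 ± 0.291 FPKM with PI3Kdi, and at 1.31 ± 0.0624 FPKM in FOXO1-GFP KO without and 1.62 ± 0.0608 FPKM with PI3Kdi (SD, n = 3). Ifi209, an interferon-inducible gene elsewhere on chromosome 1, was at 32.3 ± 6.08, 65.3 ± 7.43, 18.2 ± 0.454 and 25.6 ± 2.32 FPKM in the same order. Tnfrsf22, a decoy receptor gene, was at 1.23 ± 0.230, 2.66 ± 0.196, 0.460 ± 0.173 and 0.540 ± 0.167 FPKM. Like Slamf6, these 3 had their highest mean in WT+PI3Kdi, but their means in FOXO1-GFP KO lay closer to those in WT.

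Among the members themselves, the correlation of Slamf6 with the 7 others over the same 12 libraries ran from -0.49 for Sh2d2a to 0.62 for Cd48. The highest correlation between any 2 members was that of Ly9 with Slamf7, at 0.74, and Ly9 with Cd244a, whose reads can be shared, stood at 0.66.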

How the data were processed

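The mRNA libraries were paired 75 bp reads from TruSeq Stranded libraries. Per the study's methods and the labels, the authors aligned them with STAR 2.7.1a to GRCm38.p6, counted reads per Ensembl gene (the strand setting is not given in the sources used here), removed low genes with edgeR, scaled by TMM and deposited FPKM per summed exon length, rounded to 2 decimals; 0 other columns of values per sample were present.

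Positions and exon lengths came from GENCODE M21 (GRCm38; 13270 of 13283 genes matched), and promoters from RefSeq. The depth of each library came from the spacing of FPKM in genes of at most 400 bp, which fall on whole reads within rounding (0.005 FPKM); in held-out genes of 400 to 800 bp, 88.6 to 98.6% of values came out whole, against 7.55 to 28.2% by chance. Because the FPKM were scaled by TMM, this depth includes that scaling and is not a count of sequenced reads. Estimated reads are FPKM times exon length times this depth. It sets the counting error given for Slamf6.

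The test was limma 3.58.1 (R 4.3.3) on log2(FPKM + 0.1), with 4 group means over 12 libraries and a mean-variance trend, so its fold changes understate those of low genes. Calls needed a fold change over 1.5 and a p, adjusted by Benjamini-Hochberg across the table, under 0.05. In a simulation of PI3Kdi in WT that altered 200 of 13283 genes by 1 on the log2 scale, 61.5% were recovered without and 94.5% with the replicate block within genotype. The simulated pairs were given the correlation estimated by that block (0.757), which favours the blocked fit by construction. A change of 1 exceeds every difference of the 7 members, so the simulation does not give the power for them.

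The labelled replicate numbers were taken to pair libraries of a genotype, since the deviations of paired libraries from their group means correlated at 0.594 to 0.838 in all 6 pairs, against -0.409 to 0.730 across genotypes. The labels do not say that replicates came from separate mice, so p-values measure the spread between these libraries.

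Alternatives were other pseudocounts, a filter on low genes, replicate blocks, no trend, 6 libraries alone, equal medians, voom and leaving out each library. The members, gene lists and tests were chosen with earlier results of these data known. A gene was left out of the B cell list and another out of the signalling list, and they are not reported here. Genes outside the members were named if they were Foxo1, in a pathway list and called with or without the block, or among the 5 most correlated with Slamf6; others, such as Cd84 and Fcgr3, were named after their values were seen, and markers as listed. Counts, intervals and limits from reads cover counting error only.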

Additional observations from a re-analysis of the deposited data

How the results depend on the processing

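No member of the 7 was called in any comparison under the alternatives run. These included the replicate block within genotype, a block across all groups (replicate number as a fixed term), both voom fits and the omission of each of the 12 libraries in turn. The filter at a mean of 1 FPKM removed Slamf1 and so tested 6, and fits of 6 libraries gave no difference of responses. In limma on log2 FPKM the block by construction leaves each log2 difference as it was, Slamf6 at 1.71 for PI3Kdi in WT included. Among the 7 members, an adjusted p under 0.05 was reached by Ly9 and Slamf7 alone and depended on pairing: over 23 alternatives it ran from 0.0109 to 0.9999 (Ly9) and from 0.00290 to 0.9997 (Slamf7) for PI3Kdi in WT, and from 0.00128 to 0.99998 and 0.0450 to 0.99998 in FOXO1-GFP KO, and passed only in fits with a block. The block across all groups put Ly9 at an adjusted p of 0.0549 in WT, 0.0162 in FOXO1-GFP KO and 0.0162 for genotype with PI3Kdi (limma), and Slamf7 at 0.0613 in WT and 0.240 in FOXO1-GFP KO, so that Slamf7 passed in neither.

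The size of the Slamf6 differences depended on the pseudocount, by its construction, and their sign did not. With pseudocounts of 0.01, 0.5 and 1 FPKM the log2 difference was 2.02, 1.04 and 0.71 for PI3Kdi in WT, 0.86, 0.0713 and 0.0370 in the knockout, -4.08, -1.48 and -0.96 for genotype with PI3Kdi, -2.92, -0.51 and -0.29 for genotype without it, and -1.16, -0.97 and -0.67 for the difference of responses. With voom without and with the block (the latter chosen after seeing the data) it was 2.10 and 2.10, 1.04 and 1.03, -4.23 and -4.16, -3.18 and -3.10, and -1.05 and -1.06 in the same order. Leaving out each library gave 1.62 to 1.86, 0.18 to 0.35, -3.01 to -2.84, -1.56 to -1.32 and -1.58 to -1.34. The filter at a mean of 1 FPKM removed Slamf6 too and gave no value for it.

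Of 793 other values of the 7 members, 757 kept their sign and 36 changed it, 32 of them on leaving out a library, for 16 of 35 differences of at most 0.25, and the cause was not tested. Leaving out a library changed 30 of the 35 differences by over 1.5 times or in sign. With voom, without and with the block, the Slamf1 difference was -0.0179 and -0.0206 with PI3Kdi in FOXO1-GFP KO. Scaling to equal medians gave 0.0023 for Sh2d1a with PI3Kdi in WT and -0.000633 for the Sh2d2a difference of responses. Leaving out libraries gave ranges of -0.19 to 0.12 for Slamf7 (genotype without PI3Kdi), -0.12 to 0.11 and -0.19 to 0.0062 for Slamf1 (PI3Kdi in FOXO1-GFP KO, then genotype in the presence of PI3Kdi), and -0.0417 to 0.11, -0.0044 to 0.15 and -0.0410 to 0.12 for Cd48 (PI3Kdi in WT, PI3Kdi in the knockout, difference of responses). Those of Cd244a were -0.55 to 0.12 (PI3Kdi in FOXO1-GFP KO), -0.35 to 0.24 and -0.21 to 0.24 (genotype with and without PI3Kdi) and -0.38 to 0.30 (difference of responses), whose upper ends came without replicate 3 of FOXO1-GFP KO+PI3Kdi or FOXO1-GFP KO. Those of Sh2d1a were -0.12 to 0.0347, -0.24 to 0.0217 and -0.22 to 0.0466, and those of Sh2d2a -0.0385 to 0.12, -0.00090 to 0.0936 and -0.0703 to 0.0866, in the order given for Cd48.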
